A study of Mus musculus with 4 samples.

Results

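The genes described here are Tnf, which encodes tumour necrosis factor, and genes of the NF-kB pathway that this cytokine switches on: Nfkb1, Nfkb2, Relb, Nfkbia, Tnfaip3, Icam1, Vcam1, Traf1 and Birc3. They were listed by symbol and found on the arrays through the transcript accession of each probe that is not a control. All 10 of the 10 listed genes were found, by 15 of 56605 probes, among 23458 genes in all. Liver RNA was hybridised to 4 one-colour Agilent arrays, 1 per condition. The mice were males on a C57BL/6 background, 24 weeks old. F/F mice carry Lpiat1 (also named Mboat7) alleles with loxP sites around a fragment that holds exons 2 to 4, and no Cre. LKO mice carry the same alleles and Alb-Cre, which cuts them in hepatocytes, so the other cells of the liver keep the gene. Each genotype was fed chow (CE2) or, from 6 weeks of age and for 18 weeks, a high fat diet (HFD). Whether an array holds RNA of 1 mouse or of a pool was not given in the sources used here. With 1 array per condition, no difference below has a replicate check and no test was run.

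Levels are given as relative signal, the processed signal of a probe divided by the 75th percentile of its array, and differences as log2 of the ratio of 2 relative signals. On the chow arrays the 75th percentile was 222 (F/F) and 213 (LKO), and on the HFD arrays it was 263 and 296. Between 53.0% and 57.0% of 59305 spots per array were well above background by the scanner software. Each probe of the 10 genes had 1 spot, so technical error was read from 295 other probes spotted many times. The SD of the difference of 2 such spots was 0.09 over all of them, 0.27 for signals under 100 (14 probes), 0.07 for the brightest class and 0.13 between. These SDs hold no difference between mice. Different probes of 1 gene gave differences that were farther apart, with an SD of 0.26 to 0.41 over the 4 comparisons. The targeted gene, Mboat7, had a relative signal of 4.97 in F/F chow, 4.04 in LKO chow, 4.49 in F/F HFD and 3.72 in LKO HFD. It was 1.23-fold lower in LKO than in F/F on chow and 1.21-fold lower on HFD. Whether its probe matches the floxed exons could not be told from the files, so this value does not check the genotype labels. Hepatocyte markers, 8 of 8, were well above background on the 4 arrays, as the liver label asks.

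TNF is a cytokine made mainly by macrophages, in the liver by Kupffer cells and by recruited monocytes. Binding to its receptor on hepatocytes, endothelial cells and other cells leads, through adaptor proteins and the IkB kinases, to release of NF-kB dimers from their IkB inhibitors. NF-kB then drives genes for cytokines, adhesion molecules and cell survival, and also genes for its own inhibitors, which end the response. This signalling is known for its part in inflammation of the fatty liver.

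The ligand itself gave opposite pictures by its probes. Tnf has a pair of probes designed on the same transcript. The brighter, A_55_P2740937, had a relative signal of 1.31 in F/F chow, 0.882 in LKO chow, 0.257 in F/F HFD and 0.211 in LKO HFD. Both chow arrays were thus far above both HFD arrays, by 5.10-fold in F/F and 4.18-fold in LKO, or 3.12-fold and 2.72-fold with normexp correction. Of all genes with a value, 0.345% lay below this Tnf difference in F/F and 0.709% in LKO. Within a diet, LKO was 1.48-fold lower on chow and 1.22-fold lower on HFD, and the HFD difference of -0.28 was close to the 0.27 of replicate spots of that brightness. The dimmer probe, A_51_P385099, was not well above background on 3 arrays and was so on LKO HFD alone, with a relative signal of 0.0493. Against the lowest signal that was well above background on each array, that is at least 1.55-fold higher than in F/F HFD and at least 1.30-fold higher than in LKO chow. The direction of Tnf between diets in LKO and between genotypes on HFD therefore depends on the probe, and which probe reports the Tnf mRNA was not determined. Of the ligands and receptors around TNF, Tnfrsf1a, the main TNF receptor of most cells, had relative signals of 19.5 (F/F) and 21.3 (LKO) on chow and of 18.3 and 19.0 on HFD, with no difference above 0.13 or below -0.16 in the comparisons made. Adam17, the protease that sheds TNF from the cell surface, had differences of 0.11, 0.07, -0.11 and -0.16 in the order LKO minus F/F on chow, LKO minus F/F on HFD, HFD minus chow in F/F and HFD minus chow in LKO. Differences given as 4 values below keep that order.

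Of the NF-kB subunits, Nfkb2 and Relb, partners in the non-canonical branch of the pathway, were highest in LKO HFD. Nfkb2 encodes p100, the precursor of p52. Its brighter probe had relative signals of 1.31 in F/F chow, 1.33 in LKO chow, 1.78 in F/F HFD and 2.23 in LKO HFD, and its dimmer probe 0.458, 0.502, 0.711 and 0.858. Both probes gave the same order of arrays, and by the brighter the chow arrays were 0.03 apart, within the 0.13 of replicate spots. Relb, whose protein pairs with p52, had relative signals of 0.550 in F/F chow, 0.330 in LKO chow, 0.684 in F/F HFD and 0.840 in LKO HFD by its brighter probe. LKO was 1.67-fold lower than F/F on chow and 1.23-fold higher on HFD, so the genotype difference turned its sign with the diet. The dimmer Relb probe gave the same turn, from -0.90 on chow to 0.40 on HFD, and a diet difference of 0.24 in F/F and 1.54 in LKO. The signals of this probe were only 13.6 to 54.8, where replicate spots had an SD of 0.27, and 0.24 is within that. Nfkb1, which encodes p105, the precursor of p50, stood apart from this pattern. F/F chow was lowest, at 0.240, and the other arrays, 0.311 in LKO chow, 0.325 in F/F HFD and 0.328 in LKO HFD, did not differ from each other beyond the spread of replicate spots. Rela, the activating subunit of the canonical dimer, had relative signals of 29.2 (F/F) and 27.9 (LKO) on chow and of 25.6 and 25.1 on HFD, with diet differences of -0.19 and -0.15. Rel was well above background in F/F chow alone, where it was at least 2.01-fold higher than in F/F HFD (1.26-fold with normexp correction).

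Among the inhibitors, Nfkbia and Tnfaip3 differed. Nfkbia encodes IkB alpha, which holds NF-kB in the cytoplasm and is itself a classical NF-kB target. Its relative signal was 19.4 in F/F chow, 14.1 in LKO chow, 20.2 in F/F HFD and 17.2 in LKO HFD. LKO was lower than F/F on both diets, by 1.38-fold on chow and 1.18-fold on HFD, while F/F HFD and F/F chow, 0.06 apart, did not differ beyond the spread. Tnfaip3 encodes A20, an enzyme that edits ubiquitin chains and ends TNF signalling. Its relative signal was 0.650 in F/F chow, 0.447 in LKO chow, 0.926 in F/F HFD and 1.32 in LKO HFD. As for Relb, LKO was lower than F/F on chow (-0.54) and higher on HFD (0.51). The diet difference was 1.42-fold in F/F and 2.94-fold in LKO. The promoters of these inhibitors are shown because NF-kB is known to drive both genes, and because Icam1, described next, carries a like motif. Each is the stretch of 250 bases before the transcript start from RefSeq (GRCm38.p6), read 5′ to 3′ on the gene's strand, with capitals for matches of the NF-kB motif GGANTTTCC on either strand (GGAAATTCC is a match on the opposite strand). Nfkbia lies on the minus strand, chr12:55492648-55492897, Tnfaip3 on the minus strand, chr10:19015411-19015660, and Icam1 on the plus strand, chr9:21015690-21015939.
Nfkbia: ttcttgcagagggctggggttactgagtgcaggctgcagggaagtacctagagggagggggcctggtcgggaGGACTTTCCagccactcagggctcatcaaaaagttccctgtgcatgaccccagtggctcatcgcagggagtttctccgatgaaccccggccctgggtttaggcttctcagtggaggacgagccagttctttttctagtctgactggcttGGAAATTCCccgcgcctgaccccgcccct
Tnfaip3: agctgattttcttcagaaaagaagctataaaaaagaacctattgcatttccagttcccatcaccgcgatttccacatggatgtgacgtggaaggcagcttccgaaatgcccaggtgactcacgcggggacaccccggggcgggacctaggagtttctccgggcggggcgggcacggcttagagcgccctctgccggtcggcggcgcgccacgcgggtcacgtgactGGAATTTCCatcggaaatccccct
Icam1: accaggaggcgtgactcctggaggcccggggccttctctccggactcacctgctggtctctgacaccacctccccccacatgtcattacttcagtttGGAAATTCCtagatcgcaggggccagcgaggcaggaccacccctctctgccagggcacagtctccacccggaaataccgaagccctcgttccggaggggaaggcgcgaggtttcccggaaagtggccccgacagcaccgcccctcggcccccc

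In windows of 300 bases, from 250 before to 50 after the start, 7 of the 10 genes had an entry, and Nfkb1, Relb and Vcam1 had none. The motif of 9 letters stood in 4 of these 7 genes, Nfkbia, Tnfaip3, Icam1 and Nfkb2, against 1.45% of the 27025 genes with a promoter and 1.25% of 32851 promoters. Nfkbia held it at positions -178 and -29 from the start, Tnfaip3 at -24 and Icam1 at -153. Some genes have several starts: the other of 2 Tnfaip3 windows and 1 of 3 Nfkb2 windows held no match, and the Tnfaip3 stretch shown is that with the motif. The Nfkb2 match, GGACTTTCC, was the same site in the other 2 windows, which overlap. No match was found in the windows of Tnf, Traf1 and Birc3. Of the other pathway genes, 10 of 69 with an entry held the motif. The 10-base NF-kB consensus, in the loose form of G G and a purine, 3 free bases, 2 pyrimidines and C C, stood in 5 of the 7 genes, against 29.4% of genes and 26.8% of promoters, and 2 of the 5 distinct sites of the shorter motif overlapped it. A match describes letters, not binding.

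The adhesion molecules among the 10 genes, Vcam1 and Icam1, were highest in LKO HFD. Vcam1, which holds leukocytes on activated endothelium and is also made by Kupffer cells, had relative signals of 4.80 in F/F chow, 4.65 in LKO chow, 6.42 in F/F HFD and 12.2 in LKO HFD. The chow arrays, 0.05 apart, did not differ beyond the spread. On HFD, LKO was 1.90-fold higher than F/F, above 97.1% of genes with a value. The dimmer Vcam1 probe gave 1.57-fold. Icam1, a ligand of leukocyte integrins, had relative signals of 2.95 and 2.93 on chow (F/F and LKO) and 2.92 in F/F HFD, which did not differ beyond the spread, and of 3.85 in LKO HFD. LKO HFD was thus 1.32-fold above both F/F HFD and LKO chow, and its dimmer probe gave 1.52-fold and 1.34-fold. The signs of the Icam1 differences of -0.01 on chow and between diets in F/F each turned under 4 of 10 alternative settings.

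Traf1 and Birc3 encode proteins that sit together at TNF receptors and are themselves NF-kB targets. Traf1 was dim, with relative signals of 0.0958 in F/F chow, 0.160 in LKO chow, 0.205 in F/F HFD and 0.292 in LKO HFD. Each step in this order, 0.74, 0.36 and 0.51, was larger than the 0.27 of replicate spots under a signal of 100. Among the 10 genes, Traf1 alone was higher in LKO than in F/F by more than that on both diets. Its size and the order of its middle arrays depended on the background: with normexp correction F/F HFD was not above LKO chow (-0.03 in place of 0.36), the diet difference in F/F was 0.25 in place of 1.10, that in LKO was 0.24 in place of 0.87, and the genotype differences were 0.28 and 0.27 in place of 0.74 and 0.51. Birc3, a ubiquitin ligase that protects cells from TNF-driven death, had relative signals of 0.333 in F/F chow, 0.278 in LKO chow, 0.420 in F/F HFD and 0.341 in LKO HFD. Like Nfkbia it was lower in LKO than in F/F on both diets, by 0.26 on chow and by 0.30 on HFD. The chow difference was near the 0.27 of replicate spots of that brightness. The HFD signals, 111 in F/F and 101 in LKO, lay at the edge between the spot classes with an SD of 0.27 and of 0.13. The plot of levels shows every probe.

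**Figure D1:**
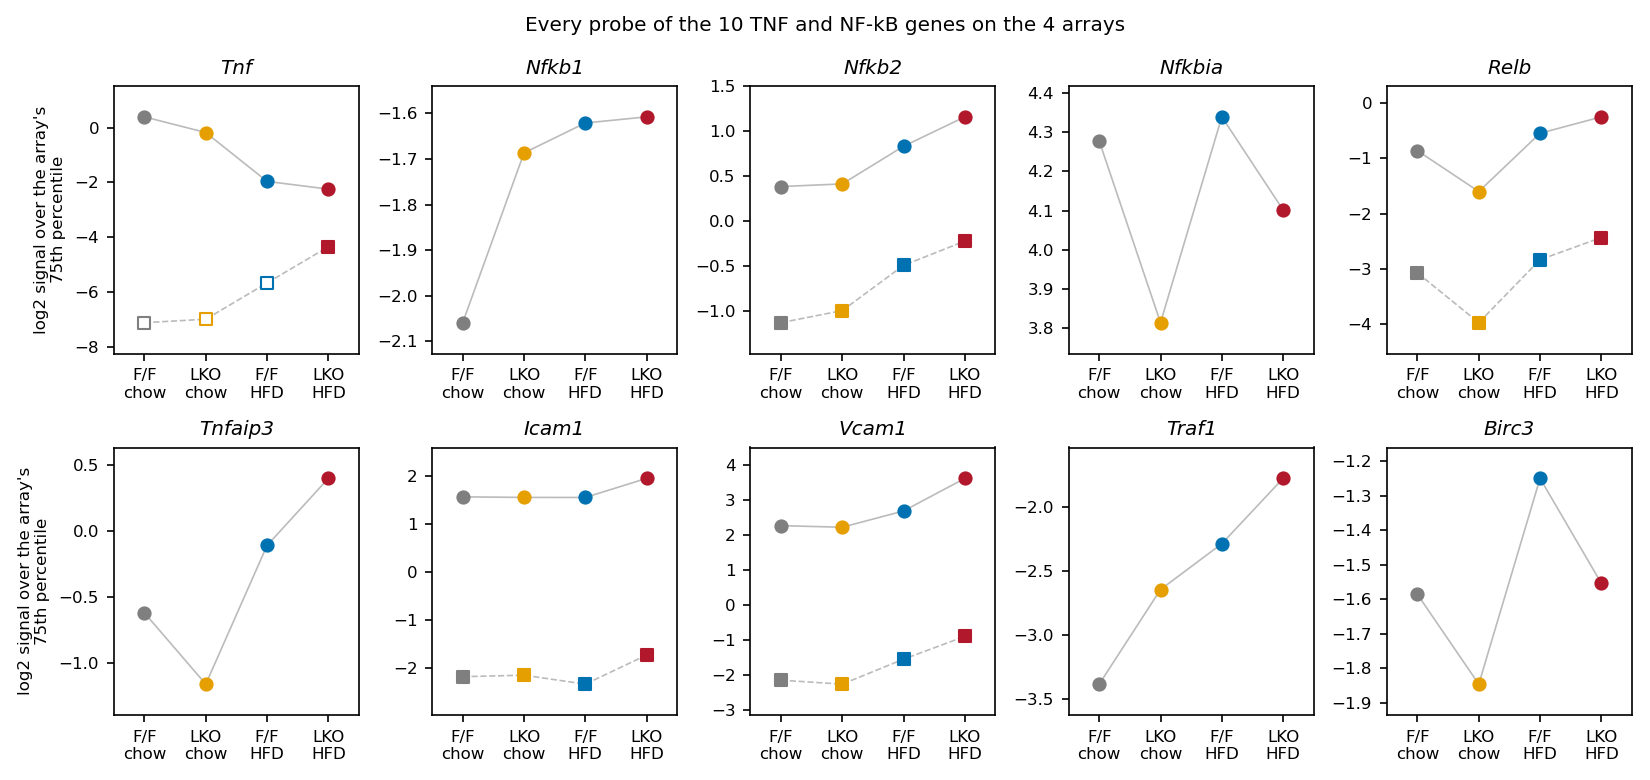
Log2 of the relative signal (vertical axis, own scale in each panel) of each probe on the 4 arrays; circles are the brighter probe of a gene, squares the dimmer, and open symbols are not well above background. LKO HFD is the highest array for 7 of the 10 genes by the brighter probe, beside 25.7% of 13978 genes, though for Nfkb1 by 0.01 only, while Tnf is lowest there by its brighter probe and above background only there by its dimmer probe.

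On chow, the 10 genes leaned lower in LKO than in F/F, and no gene was 2-fold apart. By the brightest probe, 3 of 10 were higher and 7 lower, against 50.7% of 14978 genes that were higher. The median difference was -0.15, beside 0.00 for all genes. At least 2-fold differences were held by 0 of the 10 in either direction, beside 1.11% of all genes higher and 1.03% lower. The 3 higher genes were Traf1 (0.74), Nfkb1 (0.37) and Nfkb2 (0.03), and Relb (-0.74), Tnf (-0.57), Tnfaip3 (-0.54) and Nfkbia (-0.46) were the lowest. Of the 7 lower genes, Icam1 (-0.01) and Vcam1 (-0.05) were within the spread of replicate spots. The sign of Nfkb2 turned under 1 of 10 alternative settings, and that of Icam1 under 4. In the deposited value table as it stands 2 of the 10 genes were higher and 8 lower, and with normexp correction 4 and 6. With normexp correction, which shrinks differences of dim probes, Relb was at -0.38, Tnfaip3 at -0.29, Nfkb1 at 0.22 and Birc3 at -0.10.

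On HFD the lean was the other way. LKO was higher than F/F for 7 of the 10 genes, against 45.9% of 15525 genes, with a median of 0.31 beside -0.03 for all genes. None was past 2-fold, beside 2.36% of all genes higher and 1.91% lower. Vcam1 (0.93), Traf1 (0.51), Tnfaip3 (0.51) and Icam1 (0.40) were the highest, and Birc3 (-0.30), Tnf (-0.28) and Nfkbia (-0.24) were the lower ones. By its other probe Tnf was at least 1.55-fold higher, which makes 8 of 10. That bound rests on 1 spot with a signal of 14.6 in LKO HFD, where the lowest signal well above background was 7.81. Nfkb1, at 0.01, turned its sign under 4 of 10 alternative settings. The genotype difference was higher on HFD than on chow for 7 of the 10 genes, against 43.7% of 13978 genes measured on all 4 arrays. Over all 10 genes the median of this gap was 0.29, beside -0.05. Whether the genotype difference depends on the diet was not tested.

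Between diets, HFD was higher for most of the 10 genes in either genotype. In F/F mice 8 of 10 were higher, against 47.7% of 15355 genes, with a median of 0.38 beside -0.02. Traf1 (2.14-fold higher, 1.19-fold with normexp correction) was past 2-fold upward, beside 5.21% of all genes, and Tnf by its brighter probe downward, beside 2.94%. In LKO mice 9 of 10 were higher, against 43.5% of 15239 genes, with a median of 0.57 beside -0.07. Tnfaip3 (2.94-fold), Vcam1 (2.63-fold) and Relb (2.55-fold) were past 2-fold upward, 3 of 10 beside 8.12% of all genes, and Tnf downward, 1 of 10 beside 4.08%. With normexp correction Relb was at 0.91 in LKO, short of 2-fold. Nfkb1 was at 0.08 in LKO, which turned its sign under 1 of 10 alternative settings. The lean of all genes depends on the scaling: in the deposited value table as it stands, 1075 genes were 2-fold higher and 337 lower in F/F, in place of 800 and 452, and 1549 and 445 in LKO, in place of 1238 and 621. There 61.2% of genes were higher on HFD in F/F and 57.1% in LKO, and 9 of the 10 genes were higher in each. The comparisons share arrays, so their values are set side by side and no relation between them was computed.

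**Figure D2:**
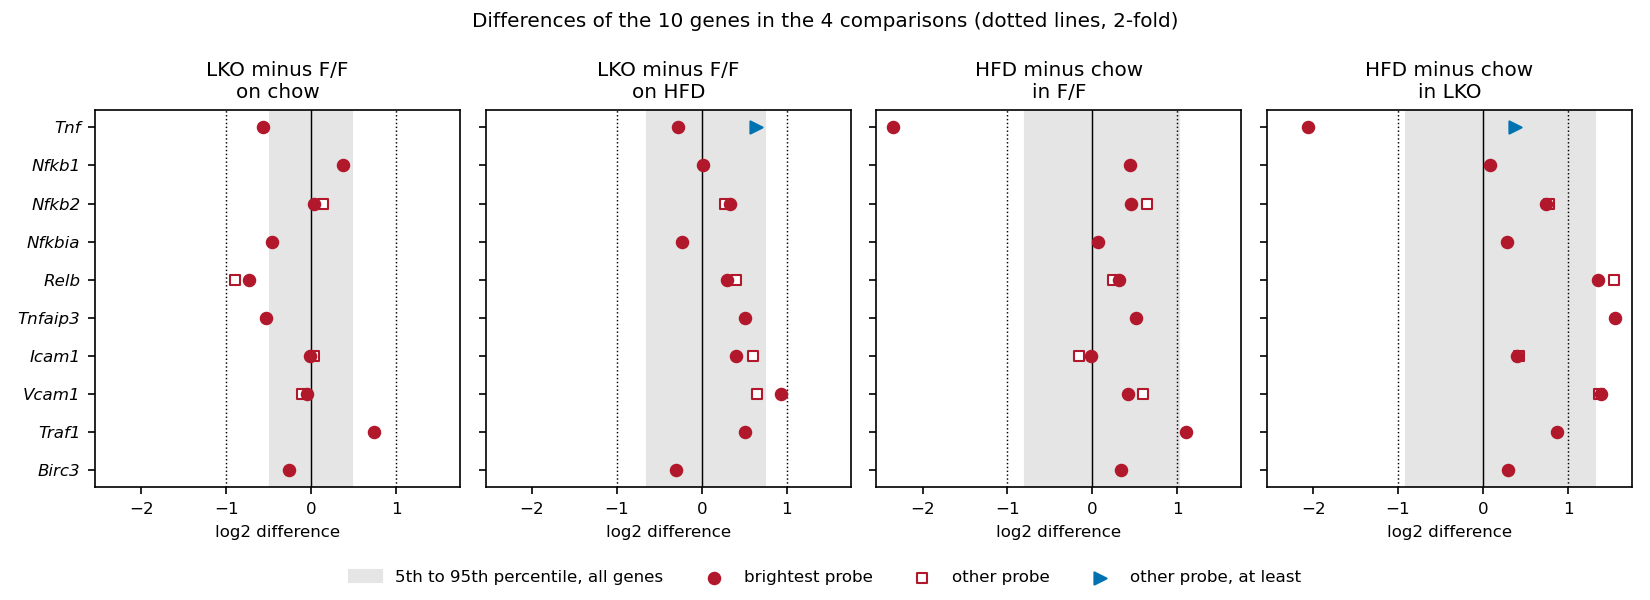
Log2 differences of the 10 genes (horizontal axis) in the 4 comparisons, with circles for the brightest probe, open squares for the other probe and triangles for a lower bound; the grey band spans the 5th to the 95th percentile of all genes. Tnf by its brighter probe lies at -2.35 and -2.06 between diets, and Relb, Tnfaip3 and Vcam1 lie at 1.35, 1.56 and 1.39 between diets in LKO.

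The other genes of the pathway were taken from a list of 86 genes by role, all with a probe. Between genotypes on chow, 25 of the 75 that had a value lay higher in LKO, and 50 lay lower, with a median of -0.10, where 50.7% of all genes were higher. On HFD, 54 of 76 were higher and 22 lower, with a median of 0.12, where 45.9% of all genes were higher. Between diets in F/F, 28 of 76 were higher on HFD (median -0.10, all genes 47.7%), where most of the 10 genes were higher. In LKO, 39 of 75 were higher (median 0.04), above the 43.5% of all genes, as were the 10 genes. The sign of each of these medians turned under 1 alternative setting. Whether the list differs from the 10 genes was not tested. Past 2-fold there were 0 higher and 0 lower between genotypes on chow, beside 1.11% and 1.03% of all genes. Cxcl1, at -0.995 there, was just past 2-fold with normexp correction (-1.02). On HFD there were 4 higher and 0 lower, beside 2.36% and 1.91% of all genes. Between diets there were 6 higher and 4 lower in F/F, beside 5.21% and 2.94%, and 13 higher and 3 lower in LKO, beside 8.12% and 4.08%. Of these 30, 13 were short of 2-fold with normexp correction, as were 70.1% of 4094 such differences over all genes.

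By role, ligands and receptors were higher in LKO than in F/F on HFD for 11 of 13 with a value (median 0.24, all genes 45.9%), and 5 of 12 on chow (all genes 50.7%). Tnfrsf12a, the receptor of the TNF relative TWEAK, had relative signals of 4.54 in F/F chow, 3.66 in LKO chow, 2.98 in F/F HFD and 8.04 in LKO HFD, so LKO exceeded F/F by 2.70-fold on HFD. The ligands Ltb and Tnfsf12 (TWEAK) were also highest in LKO HFD, Ltb at 1.01 against 0.472 to 0.553 on the other arrays and Tnfsf12 at 0.734 against 0.265 to 0.479. Cd40, a receptor of antigen-presenting cells, was at least 2.71-fold higher on HFD in LKO, but 1.02-fold with normexp correction. Adaptors and ubiquitin ligases kept within 2-fold throughout, with medians of -0.02, 0.05, 0.03 and 0.01. The lowest value among them belonged to Ripk1, a kinase at the receptor that can lead to survival or to death, which was 1.79-fold lower on HFD in F/F. The 11 kinases also kept within 2-fold, with medians of -0.01, 0.08, -0.16 and -0.03. Between genotypes the kinases spread wider, from -0.42 to 0.27 on chow and from -0.34 to 0.51 on HFD. Adaptors and ubiquitin ligases spanned -0.15 to 0.18 and -0.26 to 0.18 there.

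The inhibitors were split. Nfkbie and Nfkbid, of the IkB family, were higher on HFD in LKO by 2.33-fold and 2.05-fold (1.57-fold and 1.18-fold with normexp correction), while Bcl3, an IkB relative that works in the nucleus, was lower on HFD by 3.48-fold in F/F and 2.95-fold in LKO. Zc3h12a, an RNase that degrades cytokine mRNAs, was lower in LKO than in F/F by 1.77-fold on chow and 1.43-fold on HFD, at signals near the background, and by 1.14-fold and 1.08-fold with normexp correction. Tnip2, a partner of A20, was 1.35-fold higher in LKO on chow. In all, 4 of 14 inhibitors with a value were higher on HFD in F/F, beside 47.7% of all genes, and 4 of 14 in LKO, beside 43.5%.

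Known targets of NF-kB spread the most. Of 25 with a value, 6 were past 2-fold upward and 2 downward between diets in F/F, beside 5.21% and 2.94% of all genes, and 8 and 2 in LKO, beside 8.12% and 4.08%. Some of the chemokines listed were past 2-fold upward and others were not. Ccl4 was 9.61-fold higher on HFD in F/F and 8.62-fold in LKO, Ccl5 2.77-fold and 8.13-fold, Ccl2 3.89-fold and 6.75-fold, and Cxcl10 2.26-fold and 4.00-fold. Ccl3 was 4.20-fold higher in F/F and at least 6.46-fold in LKO. Cxcl1, a neutrophil chemokine, went the other way, with relative signals of 104 in F/F chow, 52.0 in LKO chow, 7.11 in F/F HFD and 16.3 in LKO HFD. It was 1.99-fold lower in LKO than in F/F on chow and 2.30-fold higher on HFD. On HFD, LKO exceeded F/F by 2.01-fold for Ccl5. Il6 was well above background in F/F chow and LKO HFD, and was at least 4.27-fold higher in LKO HFD than in F/F HFD and at least 3.58-fold higher than in LKO chow. With normexp correction these were 1.52-fold and 1.22-fold. It also took Ccl4 to 2.57-fold and 2.94-fold, Ccl3 to 1.37-fold and 1.57-fold, and Cxcl10 in F/F and Ccl5 between genotypes on HFD just under 2-fold. Tlr2, a receptor for bacterial lipoproteins, was 2.99-fold higher on HFD in LKO, and the protease gene Plau was 4.03-fold higher in F/F and 3.31-fold in LKO, or 1.42-fold and 1.45-fold with normexp correction.

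Other targets were lower. Junb, an AP-1 subunit, had relative signals of 95.5, 64.9, 35.6 and 29.0, and was 2.69-fold lower on HFD in F/F and 2.24-fold in LKO. Irf1 was 1.96-fold lower on HFD in F/F, but 1.04-fold higher in LKO. Zfp36, which destabilises Tnf mRNA, was lower in LKO than in F/F by 1.87-fold on chow and 1.55-fold on HFD. Gadd45b and Cxcl10 were lower in LKO on chow by 1.73-fold and 1.67-fold, but not on HFD (0.08 and 0.09). Ier3 and Sod2 were lower in LKO on HFD by 1.38-fold and 1.29-fold. The acute phase genes gave Saa3 1.86-fold lower in LKO than in F/F on HFD and 1.75-fold lower on HFD in LKO, and Lcn2 1.82-fold higher in LKO on chow and 1.90-fold lower on HFD in LKO. On chow Plau was 1.93-fold, Ccl4 1.57-fold and Tnfsf12 1.39-fold higher in LKO, at signals under 100, where normexp correction gave 1.20-fold, 1.13-fold and 1.17-fold. On HFD Ltb was 1.82-fold and Plau 1.59-fold higher in LKO, Plau 1.23-fold with normexp correction. Between diets in LKO, Tnfrsf12a was 2.20-fold and Ltb 2.14-fold higher on HFD (Ltb 1.72-fold with normexp correction), Cxcl1 was 3.18-fold lower, and in F/F Cxcl1 was 14.6-fold lower.

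**Figure D3:**
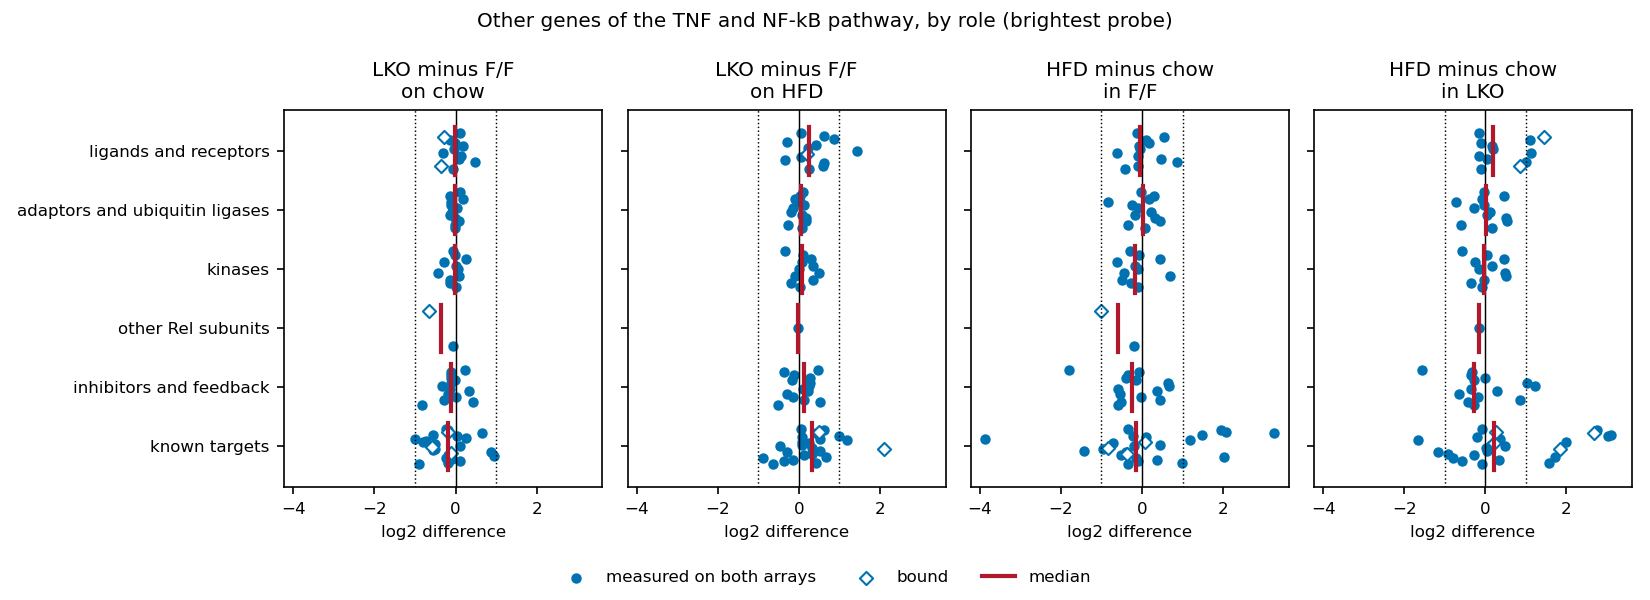
Log2 differences (horizontal axis) of the other pathway genes with a value, by role, in the 4 comparisons; filled circles were measured on both arrays, open diamonds are bounds and red bars are medians. Known targets reach from -3.87 to 3.26 between diets in F/F, while adaptors and kinases keep within 2-fold.

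To place each gene, the genes with the most similar pattern were sought among 13978 with a well-above-background flag on each of the 4 arrays, by the Euclidean distance of the 4 log2 values centred on their mean. With 4 values a match means little, and no shared function or control is read from it. Nearest to Tnf by its brighter probe were Slc13a2 (0.21), Cyp1a2 (0.23) and Gm5591 (0.29), and its nearest neighbour among the 10 genes, Nfkbia, was 2.38 away. Nearest to Vcam1 were C1qb, Tlr13 and Naip2 (0.10 each), genes known from macrophages. Within the 10 genes, Nfkbia and Birc3 were nearest to each other, at 0.21. So were Relb and Tnfaip3, at 0.29, and Nfkb1 and Icam1, at 0.39. Over all genes, Relb was nearest to Cmpk2, Prr7 and Unc13d (0.06 to 0.11), and Tnfaip3 to Selplg, Cldn1 and Batf2 (0.10 to 0.11). Nfkbia was nearest to Zfp398, Pms2 and Spsb2, and Birc3 to Pde9a, Mynn and Mdc1. Nfkb1 was nearest to Clec11a, Snap25 and Prdx3, Nfkb2 to Ldhb, Fbxo6 and Alox5ap, Icam1 to Git1, Cnp and Ncbp2, and Traf1 to Epb41l1, Parm1 and Nsl1.

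Marker lists of the cells in liver differed in how they stood beside these genes. In RNA of whole liver, more cells of a type and more RNA per cell cannot be told apart. All 10 markers of monocytes and recruited macrophages were higher on HFD in each genotype and in LKO than in F/F on HFD, with medians of 0.16, 0.97, 1.12 and 2.12. Their summed relative signal was 12.0 in F/F chow, 13.5 in LKO chow, 22.5 in F/F HFD and 41.6 in LKO HFD, Ly6c2 had the highest signal, and each marker was well above background on at least 1 array. Of 8 Kupffer cell markers, 5 were higher and 3 lower on HFD in each genotype, with medians of 0.06, 0.34, 0.39 and 0.65 and sums of 94.8, 89.5, 121 and 148 led by Cd5l. Between genotypes on HFD, 5 were likewise higher in LKO and 3 lower, the lowest at -1.64. T and NK cell markers had medians of -0.22, 1.01, -0.24 and 0.71 over the 7 or 8 of 9 with a value. Their sum, 22.0, 19.6, 16.5 and 16.7, was mostly the signal of Cd4, which was lower in LKO on both diets (-0.17 and -0.22), and Ncr1 was not well above background on any array. Like Relb and Tnfaip3, the markers were lower in LKO than in F/F on chow (7 of 7) and mostly higher on HFD (7 of 8), though their sum hardly differed on HFD. Signals of different probes are not on 1 scale of abundance, so a sum weighs its brightest probe most, and the gene named as leading a list is that of highest signal.

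Endothelial markers, 9 of 10 higher on HFD in each genotype, had medians of 0.06, 0.04, 0.50 and 0.41 and sums of 47.2, 49.0, 58.3 and 58.0, led by Clec4g. Stellate cell markers (8 of 8 higher on HFD) had medians of 0.10, 0.24, 0.45 and 0.63 and sums of 115, 122, 143 and 165, led by Dcn. Hepatocyte markers were lower on HFD, 8 of 8 in each genotype, with medians of 0.01, -0.19, -0.30 and -0.54 and sums of 3828, 3875, 3135 and 2663, led by Alb.

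Neutrophil markers had medians of -0.34, -0.24, 0.03 and 0.13 and sums of 73.8, 66.6, 66.5 and 54.1, led by Csf3r, with Ngp not well above background on any array. B cell markers gave -0.04, 0.11, 0.30 and 0.26, with sums of 0.834, 0.783, 1.003 and 1.17 led by Cd79b and Cd79a not well above background. Cholangiocyte markers gave -0.44, 0.64, 0.23 and 0.55, with sums of 1.10, 0.742, 0.767 and 1.20 led by Krt19 and Sctr not well above background. On both chow arrays another cholangiocyte marker was brighter than Krt19. Mesothelial markers gave 0.01, -0.08, -0.10 and 0.05, with sums of 1.05, 1.05, 1.11 and 1.18 led by Msln.

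Lists foreign to liver tissue differed between the arrays as well. All 10 markers of the exocrine pancreas were well above background on all 4 arrays, with sums of 25.1 in F/F chow, 14.9 in LKO chow, 13.4 in F/F HFD and 49.5 in LKO HFD, led by Amy2a5. They were lower in LKO than in F/F on chow for 10 of 10 (median -0.90) and higher on HFD for 10 of 10 (median 1.82), the same turn of sign as for Relb and Tnfaip3. Their medians between diets were -0.74 in F/F and 2.05 in LKO. Red blood cell markers, 4 of 6 with a value, had sums of 107, 105, 199 and 101, led by Hba-a1, and medians of -0.02, -0.95, 0.82 and -0.04. The part of any of these lists in the differences of the 10 genes was not tested.

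**Figure D4:**
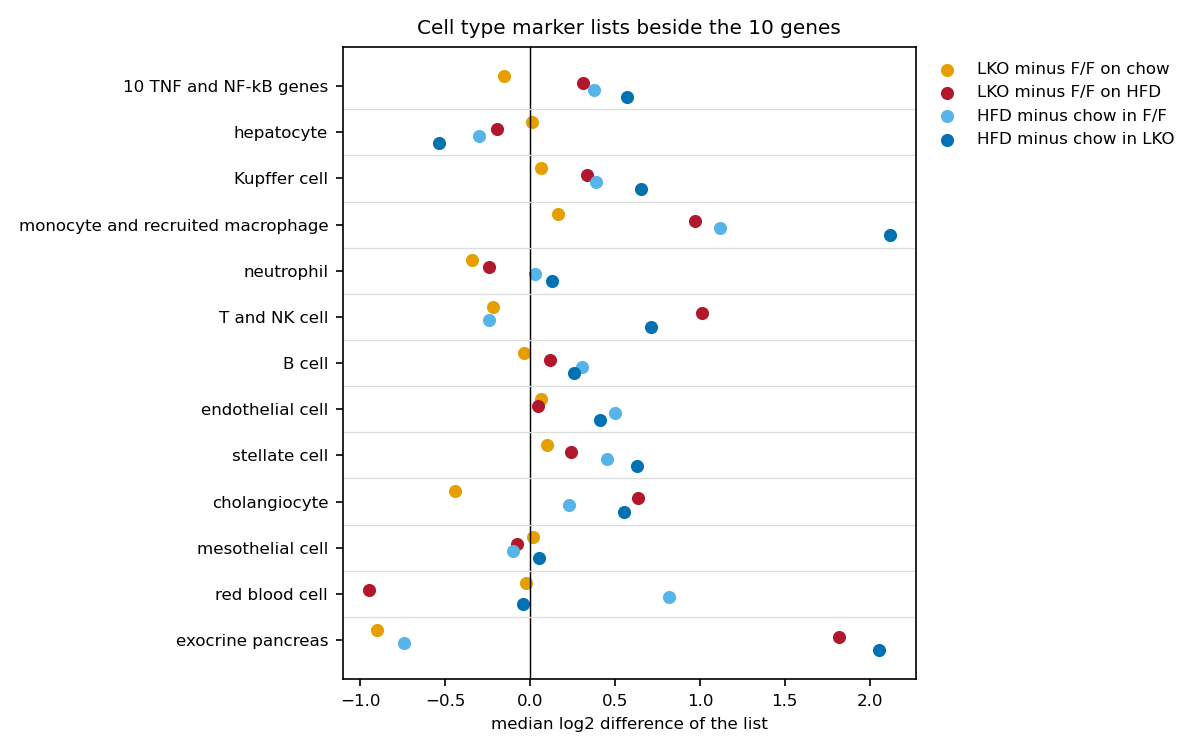
Median log2 difference (horizontal axis) of each marker list and of the 10 genes, with 1 point per comparison. Markers of monocytes and recruited macrophages reach 2.12 and those of the exocrine pancreas 2.05 between diets in LKO, where the 10 genes reach 0.57.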

How the data were processed

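Spot files deposited by the authors hold intensity after background subtraction and detrending by Agilent Feature Extraction 12.0.3.1, with quality flags. A further deposited table of intensity held the processed signal times a factor that differed by array (chow, 2.60 in F/F and 2.63 in LKO; HFD, 2.41 and 2.10). The origin of these factors was not given in the sources used here. The column medians of that table were 34.5, 33.2, 36.1 and 36.0.

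The processed signal was divided by its 75th percentile over the 59305 spots of an array that are not controls and taken to log2, with Python 3.11.15, numpy 2.4.6 and pandas 2.3.3 (figures with matplotlib 3.10.9). Outlier spots were left out and no spot was saturated. All 4 arrays were on the same slide and in the same scan, so neither separates the groups. Accessions were matched to symbols with the GRCm38.p6 gene table of RefSeq, which named 33762 probes and left 22843 unnamed. A gene was read by its brightest probe, that with the highest mean over the 4 arrays. A probe well above background on both arrays had a difference. On 1 array it gave a bound against the higher of its own signal and the lowest signal well above background there, with no value where that did not exceed 0. The steps were tested on simulated data.

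The genes and lists were chosen with earlier results of these data known. Named were the 10 genes with every probe, Mboat7, and of the pathway list each gene at least 2-fold apart in a comparison or, where these were under 5 in a direction, the 5 with the largest measured difference in that direction. Of each marker list, the gene of highest mean signal and the markers not well above background on any array were named, except 1 that is not reported here. For likeness, the 3 nearest genes were named. Tnfrsf1a, Adam17 and Rela were named for their role after their values were seen.

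The form of the 10-base NF-kB consensus was settled only after 3 stricter spellings had been counted, which stood in 4.51% to 11.2% of all promoters and in 3 of the 7 genes each. The form used is the literal reading of a wording that allowed several.

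Alternatives were normexp correction of the median signal with an offset of 50 (limma 3.58.1, R 4.3.3), since no mean signal column was used here, quantile normalization, other reference points for the scaling, the deposited value table, other filters and other rules for probes and folds. The deposited value table without further scaling and Tnf by its other probe were added after the data were seen.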

Additional observations from a re-analysis of the deposited data

Results flagged for a closer look

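Opposite signs on the 2 diets were looked for among the 10 genes and the named pathway genes, where both differences were measured and exceeded 0.18, which is 2 SD of the difference of replicate spots. None of these differences between diets or genotypes was tested, and each rests on 4 arrays. The genotype difference of Relb was -0.74 on chow and 0.30 on HFD, 1.03 apart, where its LKO chow signal was under 100. That of Tnfaip3 was -0.54 and 0.51, 1.05 apart, where its LKO chow signal was under 100 and -0.54 is near 2 SD of spots that dim. With normexp correction these were -0.38 and 0.27 for Relb and -0.29 and 0.40 for Tnfaip3. Among targets, Cxcl1 went from -0.995 to 1.20 (2.20 apart), Ccl5 from -0.55 to 1.004 (1.55 apart), Irf1 from -0.50 to 0.53 (1.02 apart) and Tlr2 from -0.18 to 0.42 (0.60 apart), where its signals on chow were near 100 and -0.18 is under 2 SD of spots that dim. Nfkbie went from -0.32 to 0.24 (0.57 apart), where its signals on chow were under 100 and replicate spots of that brightness had an SD of 0.27. Tnfrsf12a went from -0.31 on chow to 1.43 on HFD (1.75 apart). Read the other way, its diet difference was -0.61 in F/F and 1.14 in LKO, which is the same 1.75. Of 34 genes searched, 24 of them pathway genes named for the size of a difference, 8 turned from lower to higher and 0 the other way. In the whole pathway list 7 of 69 and 0 did so, and of 13978 genes 4.67% and 4.65%. The medians of the exocrine pancreas, T and NK cell and cholangiocyte markers also went from lower to higher, and their part was not tested.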

How the results depend on the processing

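No paired analysis was possible because each condition has 1 array and no test was run. Of 136 recomputed medians and counts of the lists, 122 stayed within the spread of replicate spots or within 1.5 times of the count, and 14 moved. The sign turned in 2 of the 136, none of them 2-fold: the pathway median between diets, from -0.095 to 0.040 in F/F in the deposited value table as it stands and from 0.04 to -0.02 in LKO when probes dim on any array were left out. Of 896 recomputed single differences, 138 moved without a turn of a 2-fold difference, and the sign turned in 16, of which 1 was past 2-fold. The cause of these shifts was not tested, except where stated.

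With normexp correction, whose offset shrinks dim probes by construction, the median of the 10 genes between diets was 0.25 in F/F and 0.38 in LKO, in place of 0.38 and 0.57, and 1 gene in place of 2 was past 2-fold in F/F. In the deposited value table as it stands, the median of all genes shifted by 0.14 between diets in F/F and 0.15 in LKO. The medians of the 10 genes became 0.51 and 0.72, and those of the pathway list 0.040 and 0.17. Under quantile normalization 1 of the 10 genes was past 2-fold between genotypes on HFD, beside 4.28% of all genes. At 1.5-fold, 2 of the 10 genes passed on chow and 1 on HFD between genotypes, beside 6.98% and 14.2% of all genes. At 4-fold 1 passed between diets in F/F and 1 in LKO, beside 1.498% and 2.13%, and in each that was Tnf by its brighter probe, which was short of 4-fold with normexp correction. Tnf by its other probe had no value on chow or in F/F, so the median on chow was -0.045 and 1 gene was past 2-fold between diets in F/F. Its diet difference in LKO turned from -2.06 to at least 0.38, and its genotype difference on HFD from -0.28 to at least 0.63. Of 30 differences past 2-fold in the pathway list, normexp correction took 13 below 2-fold, and of 4094 over all genes 2869 (70.1%). Values of probes with a signal under 100 are limited by their distance from the background.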
